A study of Mus musculus with 24 samples.

Results

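The replication-dependent histone genes of the mouse were followed in maps of excision repair after cisplatin, in kidney and liver over the day. Every entry of the deposited gene tables with a single symbol starting with Hist1h, Hist2h, Hist3h or Hist4h was taken, which gave 62 of 24203 single-symbol entries. The 62 entries carry 59 symbols, because Hist1h2ao, Hist2h2aa2 and Hist2h3c1 are each listed at 2 places, called plus and minus below after the strand of the gene. By the type in their symbols, 6 entries belong to the linker histone H1, 17 to H2a, 17 to H2b, 11 to H3 and 11 to H4. RefSeq names 2 of them as pseudogenes, Hist3h2bb-ps and Hist1h2al. The entries lie in clusters, with 48 in Hist1 on chromosome 13 (blocks of 20 and 27, with Hist1h2al far from both), 10 in Hist2 on chromosome 3, 3 in Hist3 on chromosome 11 and 1, Hist4h4, on chromosome 6. Another 4 histone entries whose label joins several symbols were not counted among the 62. The entries are short: 56 were under 1 kb, and their median length was 489 bp (range 358 to 37455 bp), against 14297 bp over all single-symbol entries.

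Wild-type C57BL/6J females of 6 months, kept on a cycle of 12 h light and 12 h dark, received cisplatin at 10 mg/kg by intraperitoneal injection. Kidney and liver were collected 2 h later at 6 zeitgeber times (ZT, the time since the light came on, in h), ZT0, ZT4, ZT8, ZT12, ZT16 and ZT20, with 2 libraries for each tissue and time, 12 for kidney and 12 for liver. XR-seq reads out the short single strands removed from damaged DNA by nucleotide excision repair, so a read marks a repaired site and its strand. There were no animals without cisplatin among these samples, and the labels leave unsaid whether both replicates of a time are different mice. The p-values below therefore measure only the spread between libraries, which may be technical. Extraction notes in the labels name antibodies against other lesions (CPD and BPDE), while the treatment and design notes name cisplatin.

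Replication-dependent histone genes supply the core and linker histones that package newly copied DNA. They are transcribed mainly in S phase, lack introns, and end in a stem-loop in place of a poly(A) tail. Many H2a and H2b genes stand head to head and share the DNA between their starts. Repair of the transcribed strand (TS), the template of RNA polymerase, is helped by transcription-coupled repair, which starts where a polymerase stalls at a lesion, whereas the non-transcribed strand (NTS) depends on global repair. Kidney and liver of adult mice hold few dividing cells, and in a bulk library fewer cells of a kind and less repair per cell cannot be told apart.

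Of the 62 entries, 58 matched a RefSeq gene and 51 had a promoter sequence of that gene (GRCm38.p6, the assembly that mm10 names). The promoter whose start lay nearest to the listed start was taken, with no limit on the distance. Both strands of the 250 bases upstream of the start were searched for 3 short motifs known from histone promoters. CCAAT was present in 43 of 51 (84.3%), against 33.8% of 32851 mouse promoters in the same table, and in 3 of 10 H4 promoters. TATAAA was present in 24 of 51 (47.1%), against 12.4%. The octamer ATTTGCAT, a binding site of POU-domain factors, was present in 11 of 51 (21.6%), against 1.60%, with 6 of 14 H2a and 5 of 13 H2b promoters and 0 of 6 H1, 0 of 8 H3 and 0 of 10 H4 promoters. The motifs do not overlap one another in their letters, and a match is a description of the letters only. Below are the last 100 bases upstream of the RefSeq start for 10 genes that the results return to, written 5′ to 3′ on the strand of the gene, with matches to the 3 motifs or their reverse complements in capitals. Hist3h2ba and Hist3h2a were higher in kidney, Hist1h2ak, Hist1h2bn and Hist1h1b lower; Hist2h2ab and its neighbour Hist2h2ac stand out in the strand comparison; Hist1h1c and Hist4h4 differed between tissues on the NTS; Hist2h2bb holds the octamer. The windows of Hist1h2ak and Hist1h2bn overlap on opposite strands.
Hist3h2ba (chr11:58948811-58948910, + strand): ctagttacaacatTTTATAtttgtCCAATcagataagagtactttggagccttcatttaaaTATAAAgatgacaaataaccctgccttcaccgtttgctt
Hist3h2a (chr11:58954585-58954684, + strand): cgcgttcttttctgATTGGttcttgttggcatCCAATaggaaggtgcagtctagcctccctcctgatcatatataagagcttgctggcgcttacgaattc
Hist1h2ak (chr13:21753913-21754012, - strand): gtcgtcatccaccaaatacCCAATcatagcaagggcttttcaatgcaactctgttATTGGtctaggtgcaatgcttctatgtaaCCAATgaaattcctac
Hist1h2bn (chr13:21753976-21754075, + strand): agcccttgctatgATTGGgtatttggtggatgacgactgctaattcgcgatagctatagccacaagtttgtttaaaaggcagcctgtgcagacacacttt
Hist1h1b (chr13:21780626-21780725, - strand): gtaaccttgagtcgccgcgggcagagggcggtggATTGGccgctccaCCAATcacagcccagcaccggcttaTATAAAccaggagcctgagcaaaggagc
Hist2h2ab (chr3:96219785-96219884, + strand): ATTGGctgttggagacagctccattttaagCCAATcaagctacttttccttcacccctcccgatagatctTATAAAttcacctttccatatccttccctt
Hist2h2ac (chr3:96220881-96220980, - strand): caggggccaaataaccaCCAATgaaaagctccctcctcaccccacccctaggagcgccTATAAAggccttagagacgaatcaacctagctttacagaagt
Hist1h1c (chr13:23738707-23738806, + strand): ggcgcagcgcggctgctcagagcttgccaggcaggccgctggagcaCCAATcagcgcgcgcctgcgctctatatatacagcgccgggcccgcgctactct
Hist2h2bb (chr3:96269600-96269699, + strand): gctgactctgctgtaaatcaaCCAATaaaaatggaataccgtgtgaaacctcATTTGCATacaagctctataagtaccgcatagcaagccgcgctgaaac
Hist4h4 (chr6:136804432-136804531, - strand): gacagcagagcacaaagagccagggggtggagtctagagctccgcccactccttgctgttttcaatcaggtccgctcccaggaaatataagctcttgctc

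Libraries held 6158586 to 23569310 TS reads and 949206 to 3840712 NTS reads in kidney, and 9273110 to 20470410 TS reads and 1292708 to 2852152 NTS reads in liver. Histone entries took 961 to 3366 of the TS reads of a kidney library and 1347 to 2897 of those of a liver library, a median share of 0.0153% and 0.0146%. A single entry therefore rests on few reads, often under 50 per library on the TS and under 15 on the NTS. The tissues carried their labels: all 10 kidney markers were higher in kidney on the TS (median log2 ratio 4.14) and all 10 liver markers were higher in liver (median log2 ratio of kidney over liver -3.36). Copies of histone genes are nearly identical, and how reads that match several copies were assigned is not given in the sources used here, so values of single copies are uncertain wherever reads could be shared. None of the 62 entries overlaps another named entry.

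Repair of the histone genes was dense. Density is given here as reads per kb of the entry per 1000000 genic reads of the library (TS and NTS together). The median TS density of the 62 entries was 2.31 in kidney and 2.46 in liver, against 0.640 and 0.500 over all 24203 entries. On the NTS the median densities were 0.664 in kidney and 0.535 in liver, against 0.120 and 0.0863 over all entries. The upper quartile of all entries on the TS was 2.29 in kidney and 2.27 in liver, near the histone medians. Other entries under 1 kb, 2702 in number, had median TS densities of 0.0384 in kidney and 0.0237 in liver, and median NTS densities of 0.0272 in kidney and 0.0139 in liver. Most of them held few reads. Pooled, their median library had a TS density of 0.462 in kidney and 0.420 in liver, against 3.28 and 3.11 for the pooled histone entries under 1 kb.

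By type, the median TS density in kidney was 3.53 for H1, 1.73 for H2a, 1.96 for H2b, 2.31 for H3 and 3.02 for H4, and in liver 3.63, 1.89, 1.98, 2.60 and 2.80 in the same order. By place, the 20 Hist1 entries of the first of 2 blocks on chromosome 13 (the one with the lower coordinates) had a median TS density of 1.68 in kidney and 1.92 in liver, and the 27 of the second block 2.43 and 2.54. Hist1h2al, outside both blocks, had 0.510 in kidney and 0.389 in liver. The 10 Hist2 entries had 4.02 in kidney and 3.90 in liver, and the 3 Hist3 entries 4.74 and 2.67. Entries kept their order between tissues: across the 62 entries the log2 TS densities of kidney and liver correlated with Pearson's r = 0.917 (Spearman's rho = 0.865), a description over genes that share libraries and sequence.

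The densest entry in both tissues was Hist2h4, an H4 gene of the Hist2 cluster (chr3:96262934-96263317). Its TS density ran from 6.96 through a median of 10.4 to 16.3 in kidney and from 7.23 through 8.88 to 11.2 in liver (means 11.1 ± 3.02 and 8.92 ± 1.30, SD, n = 12 each). Every library of both tissues was above the median of all entries, and the ranges of the tissues overlapped. Hist1h1c, which encodes one of the major somatic linker histones, had a TS density of 9.87 ± 1.39 in kidney and 7.47 ± 1.25 in liver. Hist1h1e, another linker histone gene, had 7.93 ± 1.00 in kidney and 6.29 ± 0.993 in liver. Hist3h2a, an H2a gene that stands alone with Hist3 entries on chromosome 11, had 7.54 ± 1.28 in kidney and 5.91 ± 1.02 in liver.
The H3 gene Hist2h3b had a TS density of 7.39 ± 1.55 in kidney and 6.47 ± 0.738 in liver, and the H2b gene Hist2h2bb had 5.62 ± 1.31 and 4.69 ± 0.419. Hist4h4 had 5.55 ± 1.09 in kidney and 5.48 ± 0.919 in liver. These genes come from all 4 clusters and all 5 types. The lowest TS densities belonged to entries whose listed span is long or that lie apart, such as Hist1h2be, 37455 bp long, with 0.409 ± 0.0504 in kidney and 0.308 ± 0.0382 in liver, and to Hist1h1b in kidney. Hist1h2be spans far more DNA than its coding part, so its density is not that of a histone coding sequence alone.

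**Figure D1:**
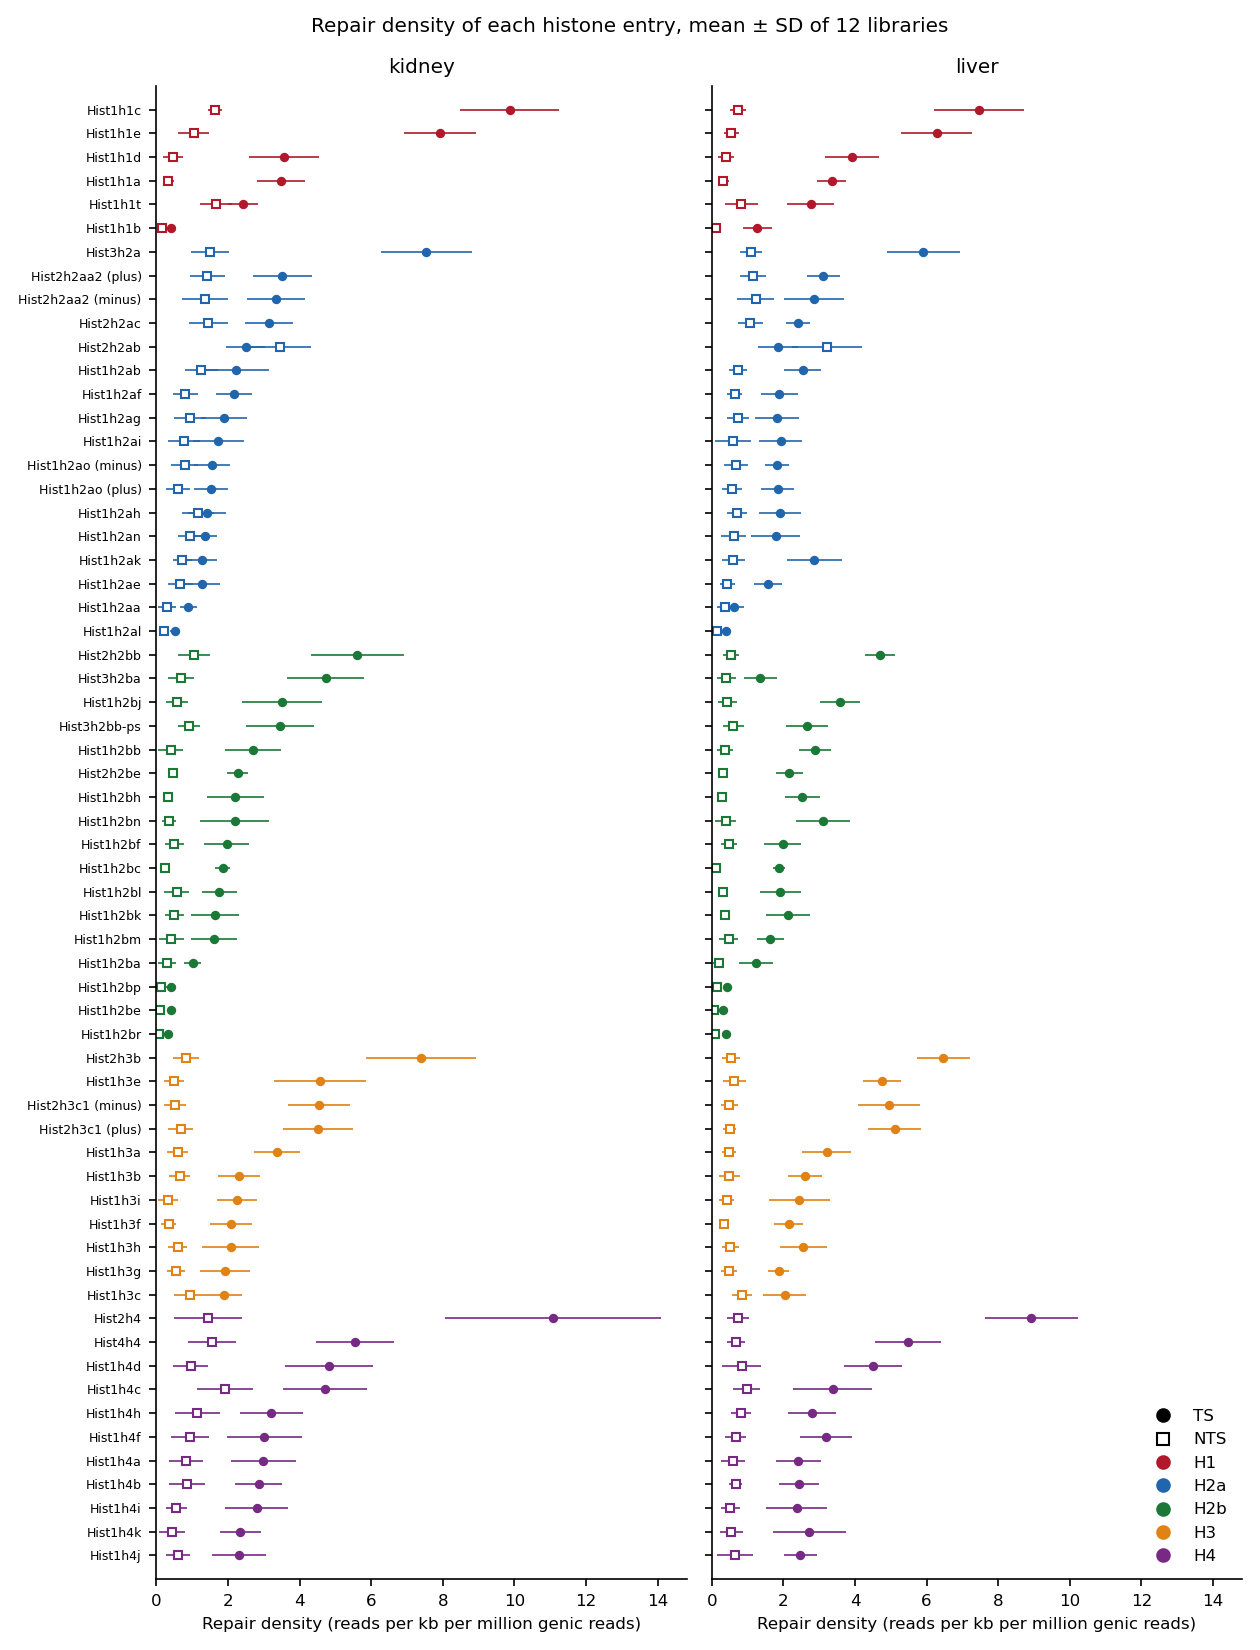
Repair density of each of the 62 histone entries (horizontal axis, reads per kb per 1000000 genic reads) in kidney (left) and liver (right); filled circles are TS, open squares NTS, with mean ± SD of 12 libraries, ordered by type and kidney TS density. Hist2h4 is the densest entry in both tissues, and Hist2h2ab is the entry whose NTS exceeds its TS.

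Reads of the histone genes lay mostly on the transcribed strand. In kidney, 57 of the 62 entries had enough reads to be tested, and 55 of them were higher on the TS, 1 was lower and 1 did not pass (edgeR quasi-likelihood test with library as a block, Benjamini-Hochberg adjusted p under 0.05 over all genes), where 86.9% of all genes tested passed (75.6% higher on the TS and 11.4% lower). In liver, 61 were tested, of which 60 were higher on the TS and 1 lower, where 85.1% of all genes passed (73.4% higher and 11.8% lower). With no filter on low counts, all 62 entries were tested and 60 were higher and 1 lower in kidney, and 61 higher and 1 lower in liver. Without the filter 18441 of 24087 genes passed in kidney and 17956 of 23990 in liver. Both strands of a library were scaled by the same size in these tests. When each strand was scaled on its own instead, which by construction moves the median of all genes to -0.07 in kidney and 0.02 in liver, 11 histone entries were higher and 23 lower in kidney, where 94.3% of all genes passed (46.2% higher and 48.1% lower), and 20 were higher and 17 lower in liver, where 94.3% passed (47.5% higher and 46.8% lower). These counts are relative to the typical gene. The median log2 ratio of TS over NTS was 1.81 in kidney and 2.15 in liver over the histone entries, against 2.19 and 2.24 over all genes tested.

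The ratio differed among the histone types. Reads pooled by type gave a TS over NTS ratio of 2.15 ± 0.225 in kidney and 2.65 ± 0.319 in liver for H2a (SD, n = 12 libraries each). H1 had 5.38 ± 0.764 in kidney and 9.43 ± 3.68 in liver, H2b 5.37 ± 0.742 and 6.83 ± 1.25, H3 6.17 ± 1.50 and 7.06 ± 1.40, and H4 4.31 ± 0.974 and 5.45 ± 1.04. The highest H2a ratio of any kidney library, 2.70, was below the lowest of each other type in kidney (2.84 for H4), and the highest in a liver library, 3.30, was below the lowest of each other type in liver (3.66 for H4). H2a and H4 entries had the highest median NTS densities of the 5 types, 0.671 and 0.665 in liver and 0.930 and 0.934 in kidney. These pooled ratios are a description with no test.

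Among linker histone genes, Hist1h1a had the largest log2 ratio of TS over NTS in kidney, 3.23 ± 0.15 (SE, adjusted p = 1.03e-16, edgeR), with TS above NTS in 12 of 12 libraries, and in liver 3.34 ± 0.17. Hist1h1d and Hist1h1e had 3.02 ± 0.18 and 2.85 ± 0.13 in kidney, and Hist1h1e had 3.48 ± 0.14 in liver. Hist1h1b, with 2 to 11 TS reads per kidney library, was not tested in kidney and had 3.32 ± 0.29 in liver. Hist1h1t, the linker histone gene of the testis, stood apart from the other H1 genes with a log2 ratio of 0.56 ± 0.14 in kidney (adjusted p = 0.000531) and 1.69 ± 0.17 in liver. Its NTS density ran from 1.14 through a median of 1.57 to 2.30 in kidney and from 0.258 through 0.765 to 1.72 in liver. The next entry on the opposite strand, Hist1h4c, ends 1538 bp from the end of Hist1h1t.

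Among core histone genes, the H3 genes Hist2h3b, Hist1h3e and Hist2h3c1 (minus) had log2 ratios of 3.07 ± 0.14, 3.05 ± 0.20 and 3.02 ± 0.19 in kidney. Hist1h2bc, an H2b entry of 8282 bp, had 2.95 ± 0.09 in kidney and the largest ratio in liver, 3.87 ± 0.09 (adjusted p = 5.41e-24, edgeR). Hist2h4 had 3.52 ± 0.15 in liver, where its TS reads exceeded its NTS reads in each library. The smallest ratios that passed were mostly those of H2a genes, with 0.49 ± 0.19 for Hist1h2an (adjusted p = 0.0187), 0.85 ± 0.20 for Hist1h2ak, 0.92 ± 0.17 for Hist1h2ab and 0.94 ± 0.20 for Hist1h2ag in kidney. Hist1h2ah, at 0.38 ± 0.19 in kidney, did not pass (adjusted p = 0.0646). In liver the smallest were Hist1h2aa at 0.75 ± 0.31, Hist2h2ac at 1.18 ± 0.15, Hist2h2aa2 (minus) at 1.23 ± 0.16, Hist1h2ag at 1.26 ± 0.19, and the H3 gene Hist1h3c at 1.27 ± 0.18. The kidney call of Hist1h2an did not hold when ZT16 replicate 2 was left out (adjusted p = 0.0683), nor the liver call of Hist1h2aa without liver ZT4 replicate 2, liver ZT8 replicate 2 or liver ZT20 replicate 2 (highest adjusted p = 0.0825).

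Hist2h2ab was the exception, with more repair on its NTS in both tissues. Its NTS density ran from 2.24 through a median of 3.40 to 4.80 in kidney and from 2.34 through 2.73 to 5.19 in liver. Its TS density ran from 1.93 through 2.33 to 3.74 in kidney and from 0.850 through 1.84 to 2.76 in liver. TS reads exceeded NTS reads in 0 of 12 kidney and 0 of 12 liver libraries. The log2 ratio of TS over NTS was -0.48 ± 0.11 in kidney (adjusted p = 0.000421) and -0.79 ± 0.14 in liver (adjusted p = 6.13e-06, edgeR), and no library left out ended either call. Hist2h2ab (chr3:96219916-96220353) lies tail to tail with Hist2h2ac on the other strand, 59 bp away, so that the NTS of Hist2h2ab continues the TS of Hist2h2ac. Hist2h2ac had a TS density of 3.14 ± 0.679 in kidney and 2.41 ± 0.344 in liver. The part of reads that run on from the neighbour was not tested.

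**Figure D2:**
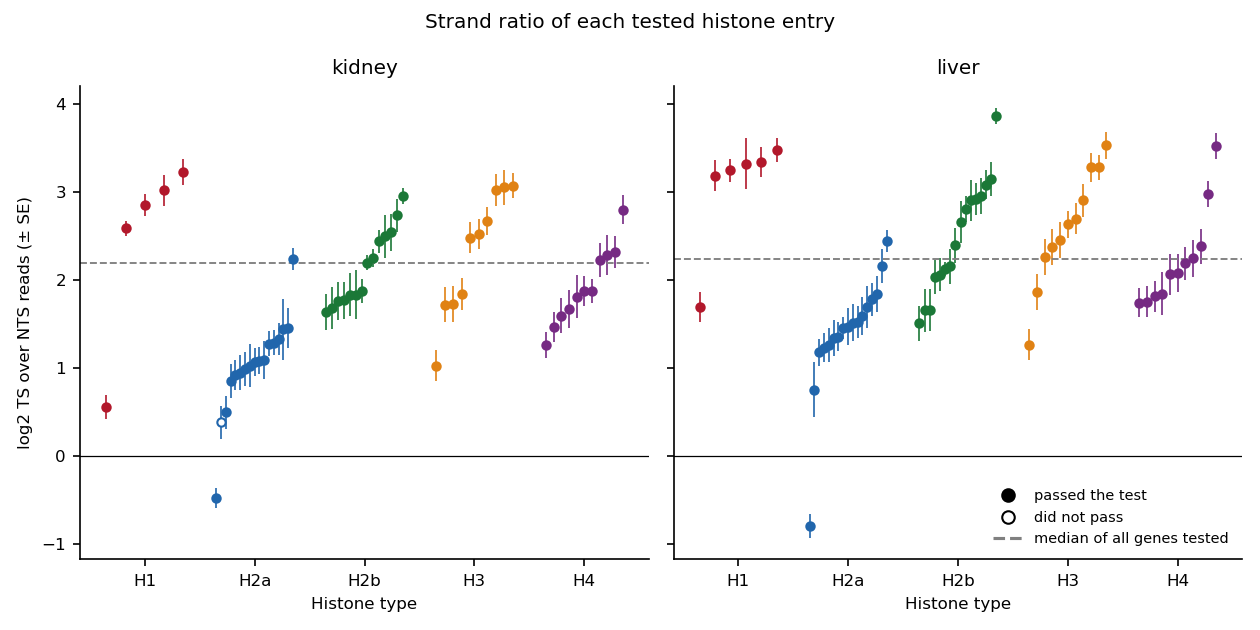
Log2 ratio of TS over NTS reads (vertical axis, ± SE) for each tested histone entry, by type, in kidney (left, 57 entries) and liver (right, 61 entries); filled points passed the test and the dashed line is the median of all genes tested. H2a entries lie lowest, and Hist2h2ab is below 0 in both tissues; with each strand scaled on its own, 23 entries in kidney and 17 in liver are lower on the TS.

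On the TS, the difference between kidney and liver was within 1 on the log2 scale for all but 3 histone entries. All 62 entries were tested, and 13 passed, 9 higher and 4 lower in kidney (edgeR, adjusted p under 0.05), where 73.9% of all genes tested passed (42.2% higher and 31.7% lower). With DESeq2's size factors in edgeR 18 passed, 6 higher and 12 lower in kidney (14486 of 19702 genes). DESeq2's own test called 9, 4 higher and 5 lower (14114 of 19702 genes). The median absolute log2 difference was 0.21 over the histone entries and 0.36 over all genes, and 3 of 62 entries (4.84%) differed by more than 1 on the log2 scale, against 24.9% of all genes. The standard error of a histone entry was larger too, with a median of 0.14 against 0.08, so that small differences were harder to detect.

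Hist3h2ba, an H2b gene of the Hist3 cluster (chr11:58948911-58949372), was the entry furthest towards kidney. Its TS density ran from 3.06 through a median of 4.76 to 6.48 in kidney and from 0.727 through 1.36 to 2.05 in liver. Every kidney library was above every liver library. The difference was 1.72 ± 0.15 on the log2 scale, or 3.31-fold (adjusted p = 1.02e-08), and it was kept with each of the 24 libraries left out. The other Hist3 entries also passed towards kidney: Hist3h2a at 0.29 ± 0.09 (adjusted p = 0.00845) and Hist3h2bb-ps, listed as a pseudogene, at 0.33 ± 0.13 (adjusted p = 0.0349), whose densities overlapped between tissues. The Hist3h2bb-ps call was kept in 10 of 24 fits that left out 1 library and was lost with DESeq2's size factors and in DESeq2 (highest adjusted p = 0.162). The Hist3h2a call was lost in DESeq2 (adjusted p = 0.0521).

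At the other end, 3 neighbours of the first chromosome 13 block were lower in kidney. Hist1h1b, a linker histone gene, had a TS density from 0.189 through a median of 0.454 to 0.549 in kidney and from 0.608 through 1.31 to 2.11 in liver. No kidney library reached the lowest liver library, and the difference was -1.73 ± 0.24 on the log2 scale (adjusted p = 3.32e-06), although it rests on 2 to 11 reads in each kidney library and 9 to 39 in each liver library. Hist1h2ak, an H2a gene, ran from 0.720 through 1.25 to 1.91 in kidney and from 1.80 through 2.85 to 3.95 in liver, overlapping only at the edge, with a difference of -1.24 ± 0.13 (adjusted p = 1.56e-07). Hist1h2bn, the H2b gene that starts 210 bp from Hist1h2ak on the other strand, ran from 0.506 through 2.21 to 4.00 in kidney and from 2.12 through 2.85 to 5.05 in liver, with wide overlap and a difference of -0.60 ± 0.15 (adjusted p = 0.00201). Their being neighbours was seen after the values. All 3 calls were kept with each of the 24 libraries left out.

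Smaller differences towards kidney were those of the H4 gene Hist1h4c (0.41 ± 0.14), Hist2h2ab (0.39 ± 0.16), Hist1h2be (0.35 ± 0.07), Hist1h1c (0.34 ± 0.09), Hist2h2ac (0.30 ± 0.11) and Hist1h1e (0.27 ± 0.09), all on the log2 scale. Hist1h1c ran from 7.96 through 9.62 to 12.2 in kidney and from 5.74 through 7.33 to 10.7 in liver, with overlapping ranges and a higher mean in kidney at 6 of 6 times. Hist2h3c1 (plus), an H3 gene, was lower in kidney at -0.23 ± 0.10 (adjusted p = 0.0459). The calls of Hist2h2ac and Hist2h2ab were lost with DESeq2's size factors and in DESeq2, that of Hist1h4c in DESeq2 (adjusted p = 0.0519) and that of Hist2h3c1 (plus) with no filter on low counts (edgeR, adjusted p = 0.0514). Those of Hist2h2ac, Hist2h2ab and Hist2h3c1 (plus) were kept in 12, 13 and 12 of the 24 fits with 1 library left out. By cluster, 0 of 20 entries of the first chromosome 13 block passed towards kidney and 3 towards liver (median -0.26). In the second block 4 of 27 passed towards kidney and 0 towards liver (median -0.08). Hist1h2al, outside both blocks, did not pass (0.30). Both blocks lay below the shares over all genes tested, 42.2% towards kidney and 31.7% towards liver.

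**Figure D3:**
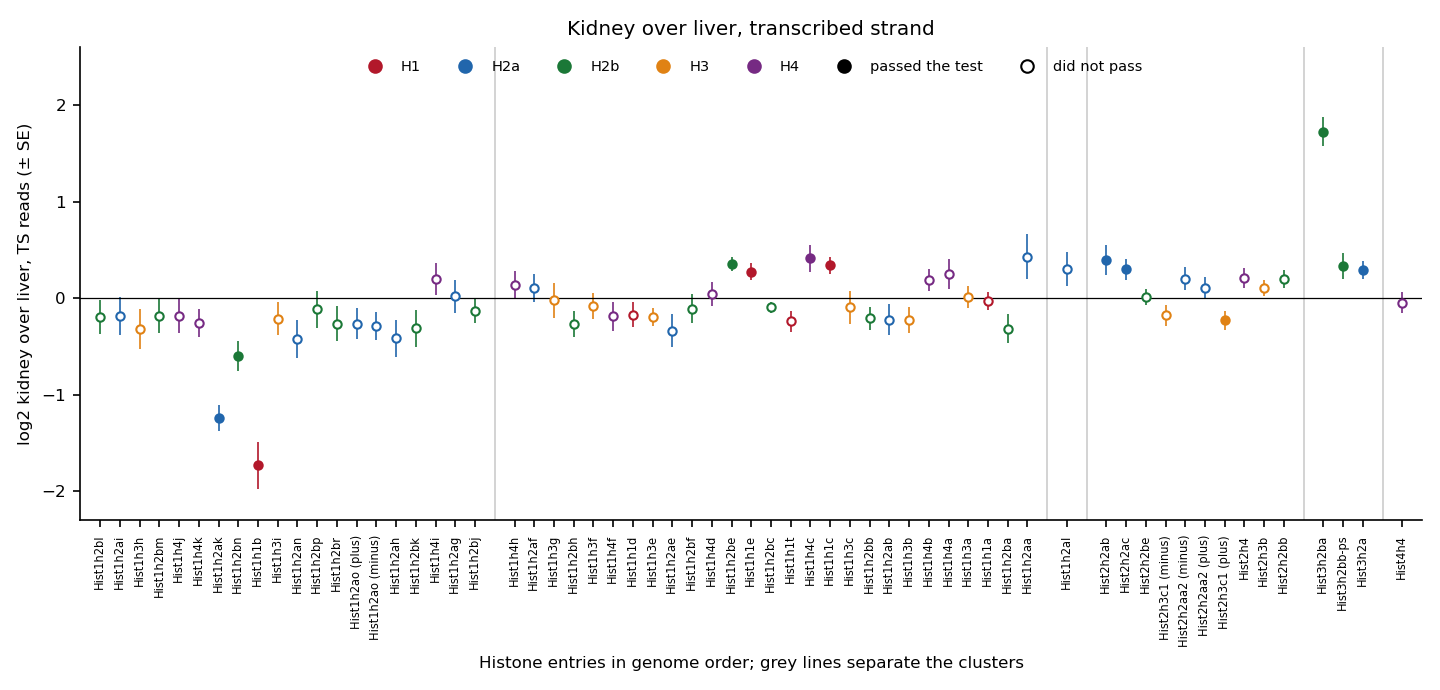
Log2 ratio of kidney over liver of TS reads (vertical axis, ± SE) for the 62 histone entries in genome order, coloured by type, with grey lines between clusters; filled points passed the test. Hist3h2ba lies highest at 1.72, and Hist1h2ak, Hist1h2bn and Hist1h1b lie lowest together.

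On the NTS, 34 of the 62 entries had enough reads, and 7 passed, all higher in kidney (edgeR), where 66.1% of all genes tested passed (33.9% higher and 32.2% lower). The median standard error was 0.232 over the histone entries and 0.101 over all genes. The linker histone gene Hist1h1c had an NTS density from 1.26 through a median of 1.62 to 1.95 in kidney and from 0.392 through 0.785 to 1.08 in liver. Its kidney libraries all lay above its liver libraries, and the difference was 0.81 ± 0.16 on the log2 scale (adjusted p = 4.05e-05). Hist4h4 ran from 0.696 through 1.41 to 2.66 in kidney and from 0.191 through 0.722 to 0.960 in liver, with overlap and a log2 difference of 0.77 ± 0.22 (adjusted p = 0.00294). Hist1h1t followed at 0.69 ± 0.19, Hist1h4c at 0.68 ± 0.22, Hist1h1e at 0.62 ± 0.22, Hist2h2bb at 0.60 ± 0.24 and Hist1h2bc at 0.58 ± 0.13. With no filter on low counts 6 were higher and 1 was lower in kidney, the H3 gene Hist1h3i (-1.15 ± 0.48, adjusted p = 0.0329, edgeR), which had too few reads otherwise. DESeq2 called 5 entries, without Hist1h1e and Hist2h2bb, and Hist2h2bb was also lost with no filter. The fit with no filter called 12993 of 23962 genes and DESeq2 called 11374 of 19124. Hist2h2bb did not pass without replicate 2 of kidney ZT0, ZT4 or ZT20, without replicate 2 of liver ZT12, or without replicate 1 of liver ZT16 or ZT20 (highest adjusted p = 0.0812). Hist1h1e did not pass without replicate 2 of kidney ZT16, of kidney ZT20 or of liver ZT8 (highest adjusted p = 0.201), and Hist1h4c did not without kidney ZT0 replicate 2 (adjusted p = 0.0789).

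The strand ratio itself differed between tissues at 16 of 60 tested entries, 1 with a larger ratio in kidney and 15 with a smaller one (edgeR, interaction of strand and tissue), where 56.8% of all genes tested passed (21.7% larger and 35.1% smaller). The median log2 difference was -0.28 over the histone entries and -0.13 over all genes. The median standard error was 0.285 over the histone entries and 0.143 over all genes, so small differences were harder to detect at histone entries. With each strand scaled on its own, 11 passed, 3 larger and 8 smaller, where 56.1% of all genes passed (29.7% larger and 26.4% smaller). Hist3h2ba was the entry with the larger ratio in kidney, 6.76 TS reads for each NTS read over 12 libraries against 3.22 in liver. Hist1h2ak had the largest difference the other way, with 1.83 TS reads for each NTS read in kidney and 4.51 in liver. Hist1h1t had 1.47 in kidney and 3.22 in liver, and Hist1h2bc 7.72 in kidney and 14.5 in liver. Of the 16 calls, 11 were kept with each of the 24 libraries left out.

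Over the day, the pooled histone genes of kidney were repaired most at ZT8 and least at ZT20. For the 56 entries under 1 kb the pooled TS density averaged 3.81 at ZT8 and 2.70 at ZT20, a ratio of 1.41, and the lowest, median and highest kidney libraries had 2.56, 3.28 and 4.09. On the NTS the averages were 1.02 at ZT8 and 0.635 at ZT20, a ratio of 1.61. The same highest and lowest times held within replicate 1 and within replicate 2 on both strands, although replicate 2 lay above replicate 1 at 6 of 6 times. Other short genes moved with the same times: the 2702 other entries under 1 kb had a pooled kidney TS density of 0.491 at ZT8 and 0.419 at ZT20, a ratio of 1.17 that was also between their highest and lowest times, and the 6633 other entries under 5 kb had 1.80 and 1.52, a ratio of 1.19. The part of this shared movement in the histone values was not tested, and no p is given for a pool.

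By type in kidney, H4 entries had a pooled TS density of 5.12 at ZT8 and 3.22 at ZT20, a ratio of 1.59, with both replicate numbers highest at ZT8 and lowest at ZT20. H2b entries under 1 kb had 3.52 at ZT8 and 2.03 at ZT20, a ratio of 1.74. H1 varied least, with 5.10 at ZT8 and 4.08 at ZT16, a ratio of 1.25. H3 had 3.67 at ZT8 and 2.79 at ZT20, and H2a under 1 kb had 2.78 at ZT0 and 1.92 at ZT20. In liver the pooled TS density of entries under 1 kb averaged 3.43 at ZT12 and 2.81 at ZT20, a ratio of 1.22, and the lowest time differed between the replicate numbers.

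**Figure D4:**
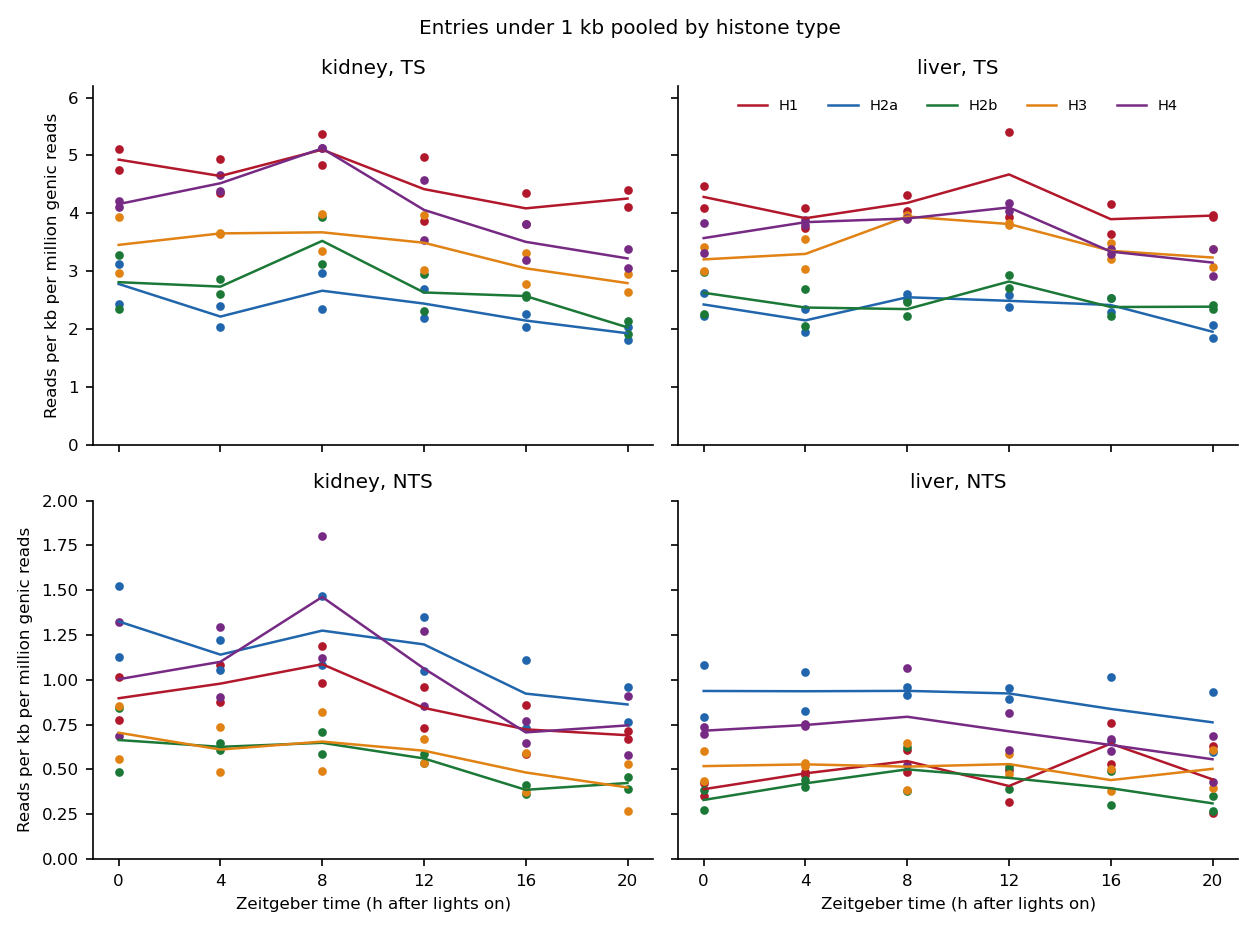
Pooled repair density of histone entries under 1 kb (vertical axis, reads per kb per 1000000 genic reads) by type against zeitgeber time, for TS (top) and NTS (bottom) in kidney (left) and liver (right); points are libraries and lines join the means of 2. Kidney H4 and H2b lie highest at ZT8 and lowest at ZT20 on the TS.

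Few single histone genes passed a test for a 24 h rhythm. On the TS, the median standard error of a histone entry's fitted amplitude (log2) was 0.149 in kidney and 0.1325 in liver. Over all genes tested it was 0.0606 and 0.0697, so small rhythms of histone entries were harder to detect. On the kidney TS, 3 of 59 tested entries passed (edgeR, joint test of both terms of a 24 h cosine curve, adjusted p under 0.05), where 15.0% of all genes tested passed; at an unadjusted p under 0.05 there were 6. The replicate numbers of kidney pair its times, and with the replicate number as a block 4 entries passed, Hist2h4 being added (amplitude 0.35, adjusted p = 0.0339), while the count over all genes went to 4899 with the block, against 2886 without it. DESeq2's likelihood ratio test called 3 entries on the kidney TS, Hist1h3e, Hist2h3b and Hist2h4 (3913 of 19277 genes), so the Hist1h2ak call below was lost. With no filter on low counts edgeR called 1, Hist1h3e (2864 of 23873 genes). On the liver TS, 1 of 61 tested entries passed, where 16.6% of all genes did, with 6 at an unadjusted p under 0.05. DESeq2 called the same entry there, and 4009 of 18655 genes. On the NTS, 0 of 31 passed in kidney (2.12% of all genes, 3 entries at an unadjusted p under 0.05) and 0 of 17 in liver (3.76% of all genes, 0 at an unadjusted p under 0.05). DESeq2 called 0 in each, with 635 of 18932 genes in kidney and 732 of 18061 in liver. A difference of rhythm between the tissues passed at 0 of 62 entries (edgeR, 0.939% of all genes, 5 entries at an unadjusted p under 0.05; DESeq2 was not run for it).

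Hist1h3e, an H3 gene, peaked in the light phase in kidney. Its 2 kidney libraries had TS densities of 6.88 and 5.34 at ZT4 and of 3.25 and 2.23 at ZT20. The amplitude was 0.45 ± 0.12 (log2, SE), the fitted peak lay at 5.48 h and the fitted peak-to-trough ratio was 1.86 (adjusted p = 0.0399). Hist2h3b, another H3 gene, had 10.1 and 8.87 at ZT4 and 5.21 and 5.37 at ZT20 in kidney. Its amplitude was 0.31 ± 0.08 with a peak at 5.76 h (adjusted p = 0.0495). For both genes each ZT4 library lay above each ZT20 library. These libraries are among those that gave the calls, so this separation describes the calls and adds no further support.

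Hist1h2ak, the H2a gene that was lower in kidney than in liver, peaked later, at 12.6 h, with an amplitude of 0.56 ± 0.15 in kidney (adjusted p = 0.0477). Its kidney TS densities were 1.91 and 1.67 at ZT12 and 0.720 and 1.06 at ZT0. In liver the entry that passed was the testis gene Hist1h1t, with TS densities of 3.88 and 3.18 at ZT16 and of 1.75 and 1.71 at ZT4. Its amplitude was 0.42 ± 0.10 with a peak at 16.2 h (adjusted p = 0.0341). None of these 4 calls was kept with each library of its tissue left out: Hist1h2ak kept its call in 1, Hist1h3e in 5 and Hist2h3b in 3 of 12 such kidney fits, and Hist1h1t in 5 of 12 liver fits. Leaving out 1 library gave 0 to 5 calls in kidney: 5 calls without ZT0 replicate 2, 0 without either library of ZT8 or of ZT20 or without replicate 1 of ZT4 or of ZT16, and 1 without replicate 2 of ZT4, of ZT12 or of ZT16. In liver it gave 0 without either library of ZT4 or of ZT20 and without replicate 1 of ZT8, of ZT12 or of ZT16. An edgeR test of the 6 times as separate levels, with no assumed curve, called 0 of 59 tested entries in kidney and 0 of 61 in liver. Over all genes it also called few, 196 of 19277 in kidney and 549 of 18655 in liver.

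**Figure D5:**
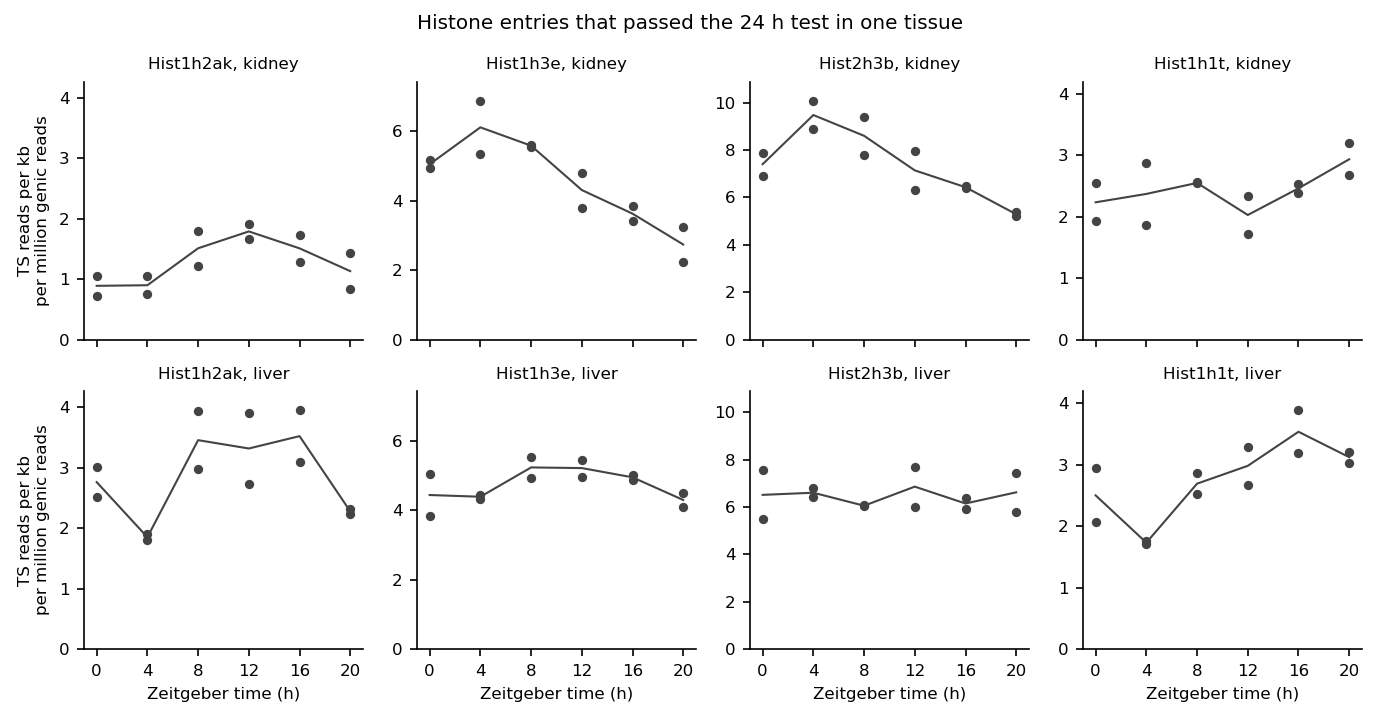
TS density (vertical axis, reads per kb per 1000000 genic reads) against zeitgeber time for the 4 entries that passed the 24 h test in 1 tissue, in kidney (top) and liver (bottom); points are libraries and lines join the means of 2. Hist1h3e and Hist2h3b are highest at ZT4 in kidney, Hist1h2ak at ZT12 in kidney and Hist1h1t at ZT16 in liver.

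Testis-specific histone genes had reads in both tissues. Hist1h1t had a TS density of 2.43 ± 0.424 in kidney and 2.76 ± 0.655 in liver. Hist1h2aa and Hist1h2ba, the H2a and H2b genes of the testis, which stand head to head, had 0.897 ± 0.244 and 1.01 ± 0.234 in kidney and 0.632 ± 0.262 and 1.24 ± 0.477 in liver. All 3 were above the median of all entries in each tissue. On the log2 scale, kidney over liver TS differences were -0.24 ± 0.11 for Hist1h1t, 0.43 ± 0.24 for Hist1h2aa and -0.32 ± 0.15 for Hist1h2ba (± SE), and none of these passed (edgeR, adjusted p = 0.0566, 0.114 and 0.170). Hist1h1t did pass, lower in kidney, with DESeq2's size factors in edgeR (-0.30, adjusted p = 0.0244) and when replicate numbers were fitted as blocks (-0.24, adjusted p = 0.0472).

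Genes that work with the histone genes were set beside them. In kidney 10 of 10 tested genes listed as replication-independent histone variants passed towards the TS, where 75.6% of all genes did. In liver 8 of 10 passed towards the TS, where 73.4% of all genes did. Their median TS density was 3.37 in kidney and 2.74 in liver. H2afx, which encodes the variant phosphorylated at double-strand breaks, had a TS density of 11.4 ± 1.58 in kidney and 9.46 ± 1.20 in liver. Cenpa, the centromeric H3 variant, was lower in kidney on the TS (log2 -1.95 ± 0.09), and H2afy2 was higher (1.76 ± 0.10). In the rhythm test of the kidney TS 4 of 10 variants passed, where 15.0% of all genes did, among them H2afv (amplitude 0.21 ± 0.03, peak at 7.49 h) and H3f3a (0.20 ± 0.05, peak at 6.52 h), and in liver 1 of 10, H3f3a, where 16.6% of all genes did.

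Factors of histone gene transcription and 3' end processing passed towards the TS at 15 of 15 genes in both tissues (75.6% of all genes in kidney and 73.4% in liver), with a median log2 ratio of 3.66 in kidney and 4.47 in liver. Between tissues 4 were higher and 9 lower in kidney, where 42.2% of all genes were higher and 31.7% lower, among them Zfp473, a component of the histone processing complex (0.93 ± 0.09), Slbp, the stem-loop binding protein (0.32 ± 0.04), and Casp8ap2, which localizes to histone locus bodies (-0.47 ± 0.05). Lsm11, a subunit of the U7 particle, passed the rhythm test in kidney (amplitude 0.27 ± 0.05, peak at 20.7 h) and in liver (0.41 ± 0.05, peak at 21.7 h). Of 8 histone chaperones, 8 passed towards the TS in each tissue, and 2 were higher and 4 lower in kidney than in liver on the TS, Asf1b at -0.61 ± 0.09. Those 6 of 8 are near the 73.9% of all genes that differed between tissues.

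Markers of S phase and proliferation passed towards the TS at 18 of 23 genes in kidney, with 3 lower, near the shares of all genes (75.6% higher and 11.4% lower), and at 20 of 23 in liver, with 3 lower (73.4% and 11.8% of all genes). Their median TS density was 0.729 in kidney and 0.748 in liver. Between tissues 8 were higher and 10 lower in kidney (42.2% and 31.7% of all genes), with Cdk1 at -1.31 ± 0.12 and Mcm5 at 1.08 ± 0.10 on the log2 scale. Among immune markers 1 of 6 was higher and 3 were lower in kidney. The rhythm test of the TS called 5 of 23 of the proliferation genes in liver (edgeR), where 16.6% of all genes passed, among them Ccne2 (amplitude 0.54 ± 0.07, peak at 16.1 h) and Rrm2 (0.47 ± 0.11, peak at 9.38 h). In kidney the lowest adjusted p of the list was 0.0832, at Ccnb1. Their part in the histone values was not tested.

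In kidney, intergenic DNA at some distance from the ends of the histone genes carried less repair at the median than the genes. In the authors' kidney tables of thinned counts, whose totals are 8700000 reads for each replicate 1 library and 20000000 for each replicate 2 library, 13 intergenic regions with a histone entry on both sides had a median of 0.132 reads per kb of each strand, per 1000000 reads of the library. The 17 regions with a histone entry on 1 side had 0.0709, and the 15767 other regions had 0.0610. The histone entries had 1.88 on the TS and 0.540 on the NTS on this scale. These intergenic regions leave out the DNA next to the entries: Hist1h3g ends at position 23535909, and the region after it starts at 23537910. Gaps between head-to-head histone entries, 167 to 607 bp long, are not among them, so promoters and near flanks are not covered. The region between Hist3h2a and Gm12260 was the highest of those on 1 side, at 1.72. Within the blocks of chromosome 13 lie 10 other entries. Among their 4 solute carrier genes, the TS density of Slc17a4 was 0.192 in kidney and 2.14 in liver and that of Slc17a2 0.266 and 1.82, while Slc17a3 had 1.51 and 1.75 and Slc17a1 had 1.48 and 1.68. The zinc finger gene Zfp184 had 0.610 in kidney and 0.223 in liver.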

How the data were processed

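The genome build was mm10, per the submitters' processing notes. Which aligner and counter were used is not given in the sources used here. Per the file headers, each entry has its read count and RPKM at each time, in 1 table for each tissue, strand and replicate number. Every test and density here starts from the deposited counts, which are whole numbers. The deposited RPKM values served to recover each library total. No column with values per sample was left unused (0 such columns). Entries with no symbol held 2.72% to 2.81% of the TS reads of a library and stayed out of genic totals and tests. Entries with several symbols stayed in the genic totals and in the tests over all genes, but were not taken as histone entries.

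Members, lists and tests were chosen with earlier results of these data known. Tests were fitted over all entries with R 4.3.3, edgeR 4.0.16 (quasi-likelihood test, TMM sizes, filterByExpr on groups of tissue and time) and limma 3.58.1, with DESeq2 1.42.0 as an alternative, and p-values were adjusted by Benjamini-Hochberg over all entries tested. The strand tests used 1 size per library and a term per library, the tissue tests 1 mean per tissue and time, and the rhythm tests a cosine curve with a period of 24 h, for which the amplitude is on the log2 scale. In the drawn-down intergenic tables each region has 2 lines, which were summed. The scripts were tested on simulated data.

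Named entries were, by rule, the 8 densest on the TS in each tissue, the 6 largest and 6 smallest strand ratios among called entries with at least 10 reads per library, the 6 largest called differences each way, the called rhythmic entries, all H1 genes and the testis list, with up to 3 called genes per other list. H2afx, Slbp, Casp8ap2, Lsm11, Asf1b, Gm12260, Zfp184, Hist1h3i, Hist1h2al and the Slc17a genes were named after their values were seen where the rule did not reach them, as were Hist1h2ah and Hist2h4 as entries that did not pass a test.

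Same-numbered kidney libraries deviated together from their group means (correlation 0.139 to 0.508 over 15 pairs of times), so the replicate number pairs the kidney times. For liver the range was -0.176 to 0.294 (median 0.103), and between kidney and liver of 1 time -0.0216 to 0.269 (median 0.137). The kidney median was 0.310, so any pairing there is weaker, but these ranges cannot exclude it. The main tissue tests did not pair kidney and liver libraries. Libraries of 1 group differed by more than counting error (chi-square per degree of freedom 2.79 to 24.3), so none was counted as a duplicate. Counting error alone limits entries with few reads, and PCR copies are not independent molecules.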

Additional observations from a re-analysis of the deposited data

Results flagged for a closer look

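At 7 entries the ratio of TS over NTS differed between kidney and liver by nearly 1 or more on the log2 scale, tested by the interaction of strand and tissue in edgeR over all 24 libraries. Differences beyond 1 were rarer than usual at histone entries, 5 of 60 tested (8.33%), against 20.0% of all genes tested. The kidney minus liver difference was -1.304 for the H2a gene Hist1h2ak (adjusted p = 0.000301), -1.135 for the testis linker histone gene Hist1h1t (adjusted p = 4.88e-05) and -1.103 for Hist4h4 (adjusted p = 4.4e-05). It was -1.022 for Hist1h2an, -0.9801 for the H2b gene Hist1h2bl and -0.9604 for Hist1h2ah. Hist3h2ba went the other way, at 1.077 (adjusted p = 0.0101). The NTS of Hist1h1t and Hist4h4 was also higher in kidney by itself, while Hist1h2ak and Hist3h2ba differed on the TS. The Hist1h2bl call was kept in 20 of 24 fits that left out 1 library (highest adjusted p = 0.0567) and was lost with each strand scaled on its own; the other 6 were kept in all of these.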

How the results depend on the processing

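With each strand scaled on its own, the strand comparison called 34 histone entries in kidney and 37 in liver, and its sign turned for Hist1h2an (-1.716), Hist1h1t (-1.684), Hist1h2ak (-1.358), Hist1h2ab (-1.293), Hist1h2ag (-1.273) and Hist1h2aa (-0.7348) in kidney. In liver it turned for Hist1h2aa (-1.380), Hist2h2ac (-1.012), Hist2h2aa2 (minus) (-0.9653), Hist1h2ag (-0.9271), Hist1h3c (-0.9149), Hist1h2ah (-0.8473) and Hist1h1t (-0.5052). That scaling takes out the excess of TS reads over all genes by construction. The kidney TS rhythm count was 1 with no filter on low counts (2864 of 23873 genes) and 0 for any difference among the 6 times (196 of 19277 genes). The liver TS count was 0 for any difference among the 6 times (549 of 18655 genes). The cause of these changes was not tested. Leaving out 1 library leaves a time with 1 library, which lowers the number of libraries that must reach the filter's minimum, so these fits tested more entries on the NTS and in the kidney strand comparison (60 to 62, against 57) and their counts are not directly comparable. They gave 59 to 62 calls for the strand in kidney, 60 to 61 in liver, 11 to 18 for tissue on the TS, 5 to 9 on the NTS, 13 to 18 for strand by tissue, 0 to 5 for the kidney TS rhythm, 0 to 1 for the liver TS rhythm and 0 in every such fit for the other 3 rhythm tests. Reads per entry limit the NTS most, where 28 of 62 entries were too shallow for the tissue test. With the replicate number as a block, counts of histone calls were 16 for tissue on the TS, 8 on the NTS, 4 and 1 for the TS rhythm in kidney and liver, and 0 for the other rhythm tests. Over all genes the block gave 14855 of 19702 for tissue on the TS and 12983 of 19124 on the NTS. For the TS rhythm it gave 4899 of 19277 in kidney and 3498 of 18655 in liver. The NTS rhythm count of kidney over all genes went to 1473, against 401. Among values of single entries under other settings, 190 kept direction and side of the threshold, 17 missed it, 2 newly passed and 13 turned. With 1 library left out, 1018 kept them, 89 missed the threshold and 8 newly passed.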
